A study of Pimephales promelas with 191 samples.

Results

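The genes described here are the 150 whose liver transcript levels differed most among libraries of the same treatment and time. They were drawn from the 5806 genes, of 26150 in the deposited gene table, with a median between 10 and 500 CPM (counts per 1000000 of a library's total) over all libraries. Levels were taken as log2(CPM + 0.1), the SD among libraries was pooled over the 16 groups of treatment by time, and the 150 genes of highest pooled SD were kept. Because this spread chose the members, it is given as a description with no test.

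The libraries came from livers of adult male fathead minnow (Pimephales promelas), a small freshwater fish used in aquatic toxicology. Fish were held as a control group or exposed to 41 µg/L metformin, to 100 µg/L guanylurea, or to a mixture of both at 41 µg/L and 100 µg/L, and livers were collected 6, 24, 48 or 96 h into the exposure. Metformin is an antidiabetic biguanide and guanylurea its transformation product. There were 12 libraries per group, and 11 for guanylurea at 24 h. The labels do not tie a library to a fish or a tank, so a p-value rests on the variation among these libraries, part of which may be technical. Library totals ran from 12.7 to 27.97 M counts (M, mega). Correlations below, except a library's correlation with its group, are Pearson's r of the deviations from the 16 group means over all libraries. A library's correlation with its group was taken over genes, on log2 CPM with no group mean removed.

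The liver makes plasma proteins, bile and most enzymes of energy and foreign-compound metabolism, and its transcripts are known to follow feeding, time of day, reproductive state and infection. Differences in gene copies or alleles between animals are a further known source of transcripts that are abundant in some individuals and nearly undetected in others. The table's identifiers could not be paired with gene names (0 of 26150 matched the RefSeq gene table), so no function is given to any gene here, and the labelled tissue could not be checked against liver markers.

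The members' pooled within-group SD ran from 1.28 to 4.24 on the log2 scale, with a median of 1.71, beside a median of 0.41 for the other 5656 genes of the same expression range. The last genes inside the limit were FMg020717 at an SD of 1.284 and FMg000626 at 1.283. The first outside were FMg003255 at 1.279 and FMg001482 at 1.275, so the limit cuts a continuous range. The members were not the least abundant genes. Their median level was 21.2 CPM, against 23.4 CPM for the other genes, and it reached from about 10 CPM in FMg015514 to 419.4 CPM in FMg010758. FMg010758 itself ran from 0.591 CPM to 1358 CPM over all libraries. Counting error accounted for between 0.0111% and 1.13% of a member's within-group variance. Of a member's total variance over all libraries, differences among treatment means held a median of 1.79% and those among time means 2.33%. The other genes of the range had 1.91% and 4.07%. These shares are not corrected for what means of random groups would hold.

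Most members had a long tail of low libraries. Of the 150, 127 had a negative skewness (84.7%, against 66.6% of the other genes of the range), and 104 were under 1 CPM in at least 1 library (69.3%, against 1.503%). In 26 members, 20 or more libraries were under 1 CPM, and 0 other genes of the range had that many. Libraries under 1 CPM raise the SD of a gene with a median of at least 10 CPM. The rule therefore favoured such genes, and these contrasts with the other genes are partly built in. Values more than 2 SD from their group mean numbered 1197, of which 1028 (85.9%) were low. These far values occurred in all but 2 libraries, but unevenly. The median library held 5 of them, and the largest number was 36, in metformin at 6 h replicate 2. The 10 libraries with most held 18.2% of all. The 8 libraries with 18 or more had a median correlation with their group of 0.869 to 0.912. Over all libraries the median was 0.923. Mixture at 96 h replicate 3 and at 24 h replicate 4, and control at 6 h replicate 3, had low agreement (defined below). The part of agreement in the far values was not tested. FMg001138 had the highest skewness (0.94), with a median of 12.9 CPM and a highest library of 1853 CPM. FMg021928 had the lowest (-3.78). Its median was 389.7 CPM, and 4 libraries had no count of it.

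In 19 members the libraries fell into 2 levels, parted by an empty gap of at least 4-fold (2 on the log2 scale) with 5 or more libraries on each side. Among the other 5656 genes of the range, 4 met the same criterion. Such a gap raises the SD by which the members were chosen, so this contrast is also partly built in. FMg009564, the member of widest spread (SD 4.24), was at or below 3.47 CPM in 60 libraries and at or above 21.1 CPM in the remaining 131, where its median was 97.3 CPM. FMg024265 was at or below 0.663 CPM in 41 libraries and between 3.75 and 683.4 CPM in the others. FMg008237 was at or below 0.865 CPM in 30 libraries and had a median of 182.0 CPM in the rest, the lowest of which was at 16.6 CPM.

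The most even division was that of FMg003244. In 86 libraries it lay between 0.625 and 22.0 CPM, and in the other 105 between 94.8 and 619.2 CPM. The low libraries numbered 25 of 48 controls, 13 of 48 with metformin, 20 of 47 with guanylurea and 28 of 48 with the mixture, and every one of the 16 groups held between 3 and 10 of them. Its mean level was not called different in any treatment. The log2 difference from control was 0.67 for metformin (95% interval -0.30 to 1.65, edgeR adjusted p = 0.668) and -0.15 for the mixture (-1.12 to 0.82, adjusted p = 0.998). FMg023796 had the highest bimodality coefficient, an index that grows as values part into 2 levels (0.850). It was at or below 0.385 CPM in 21 libraries and within 9.47 and 47.5 CPM in the other 170. FMg008570 was at or below 0.663 CPM in 50 libraries, 37 of which had no count, and at or above 6.54 CPM in the others.

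**Figure D1:**
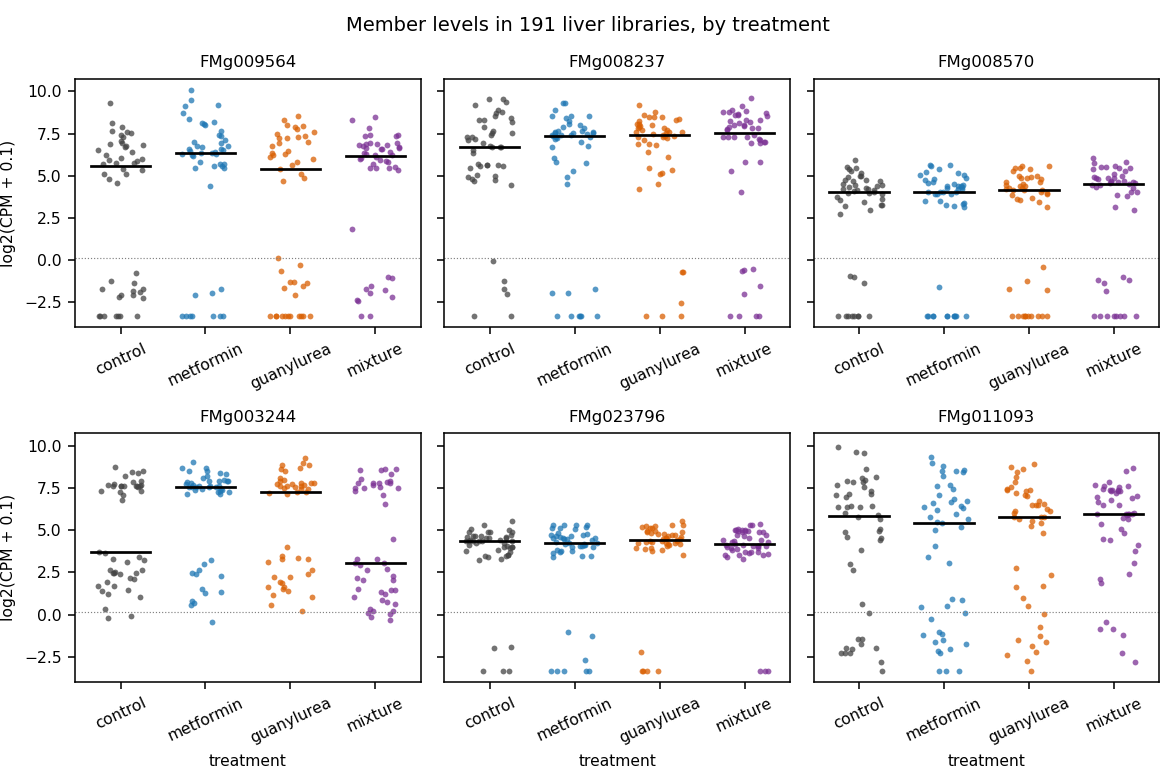
Level of 6 members in each library, as log2(CPM + 0.1) on the vertical axis, by treatment on the horizontal axis; points are libraries, black bars are medians and the dotted line is 1 CPM. FMg009564, FMg008237, FMg008570, FMg003244 and FMg023796 show an upper and a lower level in every treatment, with 1 mixture library of FMg009564 at 3.47 CPM between the clusters, while FMg011093 fills the range between.

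Low libraries of these members occurred across the study's groups, though not for each member in every group. Of the 19 members, 5 had low libraries in all 16 groups and the fewest groups with a low library was 5. Some members with 5 to 14 low libraries had none in a whole treatment or time. FMg012209, FMg009830, FMg011243 and FMg011244 had none among the controls. FMg025471 had none at 6 and 24 h, FMg012804 none at 6 h and FMg023196 none at 48 h. FMg007192, FMg009830 and FMg012209 had none at 96 h. A library was low in a median of 3 of the 19 and in at most 5, and 9 libraries were low in none. Over the 171 pairs of these members, the median correlation of within-group deviations was -0.02 (Pearson's r), and 1 pair, FMg011243 and FMg011244, shared all 5 low libraries. FMg007192 and FMg009830, which both belong to block 4 described below, shared 7 low libraries (58.3% of the first's 12 and 70% of the second's 10, r = 0.78). FMg012209 shared 8 of its 9 low libraries with FMg008570 (88.9%, and 16% of the 50 of FMg008570, r = 0.34). Leaving out the low libraries lowers the SD of these genes by construction. The SD among high libraries had a median of 0.75 over the 19 members, from 0.52 in FMg003244 to 1.496 in FMg012209.

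Other wide members did not part cleanly. FMg011093 (SD 3.75) ran without such a gap from no count to 961.0 CPM, with 42 libraries under 1 CPM. FMg025196 and FMg025382 (SD 3.24) had the same count in every library, so the 150 members hold 149 separate profiles. Their median was 10.3 CPM, and 76 libraries were under 1 CPM, 25 of them among the 48 mixture libraries and between 15 and 18 in each other treatment. Reads of identical gene copies cannot be told apart, and 237 genes of the table had the same counts as another gene in every library. Apart from that pair, the gene of the expression range most correlated with each of the 6 widest members was no member. FMg009560 was closest to FMg009564 (r = 0.65), FMg011094 to FMg011093 (r = 0.63), FMg008283 to FMg008237 (r = 0.55), FMg013756 to FMg008570 (r = 0.45) and FMg008030 to FMg024265 (r = 0.37).

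The transcript table divides the same counts among transcripts, so it is no separate support for the spread of the members. All 150 members were matched to transcripts by their summed counts, and 107 of them equalled 1 transcript (71.3%, against 62.5% of the other genes of the range). In the other 43, with 2 to 13 transcripts each, the most abundant transcript held a median of 76.2% of the counts. In 42 of these 43 that transcript alone had a spread above the limit of the 150. The top 2 transcripts had a median r of 0.62, and r was below 0 in 4 of the 43 genes.

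Some members varied together. When members were joined by the correlation of their within-group deviations (average linkage at r = 0.5), 77 of 150 joined no other, 27 formed 13 sets of 2 to 4, and 46 formed 5 blocks of 5 or more. Over all 11175 pairs of members the median r was 0.01, and 355 pairs (3.18%) exceeded 0.5. By best single partner among all genes of the expression range, member or not, 102 of the 150 (68%) had r of 0.5 or more. For 56 it was 0.8 or more, and 1 had none at 0.3 or more. This measure is looser than the joining and draws on more genes, so more partners are built in. It was not computed for the other genes of the range.

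**Figure D2:**
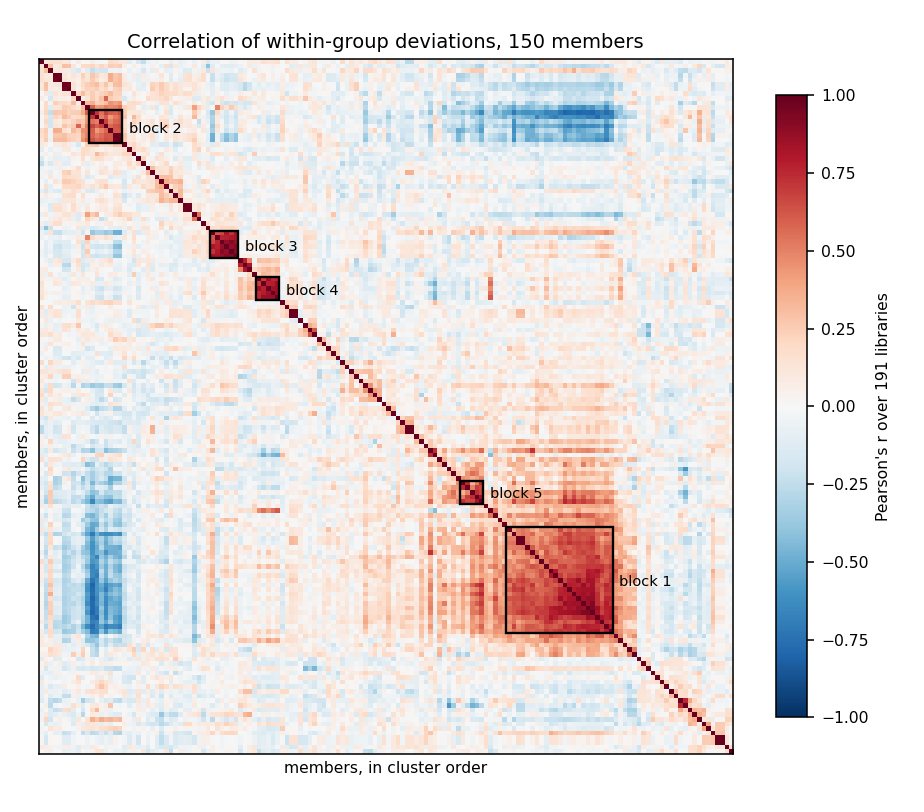
Pearson's r between the within-group deviations of each pair of the 150 members, with members in cluster order on both axes and colour from -1 (blue) to 1 (red). Black squares mark the 5 blocks; the 23 members of block 1 form the largest, and the band where they meet the 7 members of block 2 is blue.

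Block 1, with 23 members, was a low-tailed set. Its median r between members was 0.64, and 0.59 to 0.69 when each time was taken alone. FMg008983, its most central member, ran from 0.248 to 193.7 CPM with a median of 36.5 CPM. In the 10 libraries where the block was lowest, FMg008983 lay between 0.248 and 3.91 CPM, and in the 10 where it was highest between 54.5 and 159.2 CPM. The 5 lowest libraries were metformin at 6 h replicate 2, metformin at 96 h replicates 11 and 2, the mixture at 48 h replicate 10 and metformin at 48 h replicate 8. Of the 10 lowest, 5 were metformin libraries, and so were 5 of the 10 highest. No member of block 1 was called between a treatment and control averaged over times, and the smallest adjusted p was 0.171 (edgeR, guanylurea). Over all genes, 1.3% were called with guanylurea, 0.0882% with metformin and 0.0386% with the mixture. With guanylurea, the fitted log2 differences of all 23 lay above 0, from 0.02 to 0.81 with a median of 0.42. Since the members of a block vary together, these are not independent values. Any difference among the times was called in 6 of the 23, where 35.6% of all genes were called. At 96 h against 6 h, 2 were higher and 2 lower, where 29.3% of all genes were called.

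Block 2, with 7 members, opposed block 1. Its most central member was FMg019061, with a median of 294.4 CPM and a range from 2.53 to 1909 CPM. Of the 161 pairs between the blocks, 80 had r below -0.5 and 0 above 0.5. In the 10 libraries lowest in block 1, FMg019061 had a median of 1079 CPM, against 88.3 CPM in the 10 highest. With guanylurea the log2 differences of the 7 members from control lay from -0.97 to -0.14 with a median of -0.44. None was called (smallest edgeR adjusted p 0.145), where 1.3% of all genes were. The block means had r = -0.76, and both blocks were formed from these same deviations. The axis reached beyond the members. Among the other 5656 genes of the range, 353 had r of at least 0.7 with block 1, 285 had r of -0.7 or less with block 2, and 173 met both.

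**Figure D3:**
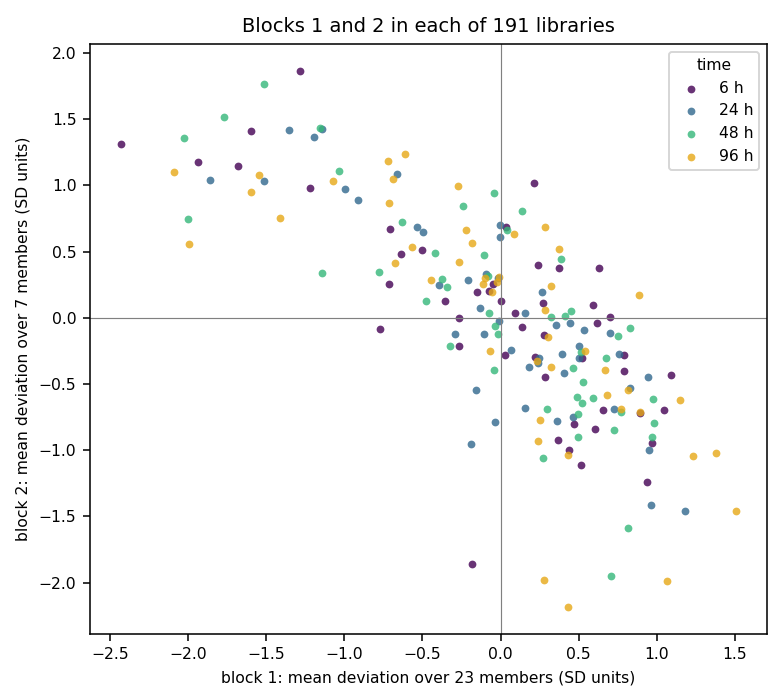
Mean within-group deviation of the 23 members of block 1 (horizontal) and the 7 members of block 2 (vertical) in each library, each gene in units of its own pooled SD, coloured by time. Libraries low in block 1 are high in block 2 at all 4 times, and the points form 1 band from -2.43 to 1.51 on the horizontal axis.

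The share of counts taken by a library's 10 most abundant genes moved with both blocks. Its median was 35.9% in the 10 libraries lowest in block 1, 26.2% in the 10 highest and 29.4% over all libraries. For block 2 it was 24.1% in the 10 lowest and 34.4% in the 10 highest. The 10 lowest and 10 highest libraries had 32.0% and 24.9% for block 3, and 33.5% and 26.0% for block 5. For block 4 they had 31.3% and 29.3%. Median totals were 18.7 and 18.4 M counts in the lowest and highest libraries of block 1, and 0 of those 20 libraries were among the 8 that agreed least with their group. For block 2, 2 of the 10 lowest and 1 of the 10 highest were among those 8. The part of that share in the blocks was not tested.

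Block 4, with 5 members, was low in a set of libraries from the first 3 times. FMg007192, FMg004700, FMg012779, FMg007293 and FMg009830 had medians between 11.5 and 84.7 CPM, yet 31 libraries had at least 1 of them under 1 CPM, 20 had 2 or more, and 6 had all 5. The collections at 6, 24, 48 and 96 h held 16, 5, 10 and 0 of those 31 libraries. By treatment they numbered 8 control, 7 metformin, 8 guanylurea and 8 mixture libraries. FMg004700 lay between 0 and 21.5 CPM at 6 h (median 9.08 CPM), with no count in 15 of 48 libraries, and between 6.08 and 22.1 CPM at 96 h (median 13.9 CPM). FMg007192 lay between 0 and 271.4 CPM at 6 h (median 75.4 CPM), with no count in 7 libraries, and between 29.97 and 244.1 CPM at 96 h (median 98.0 CPM). For each of the 5 the lowest library at 96 h was above 6 CPM, while the upper ends of the 6 h and 96 h ranges overlapped.

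**Figure D4:**
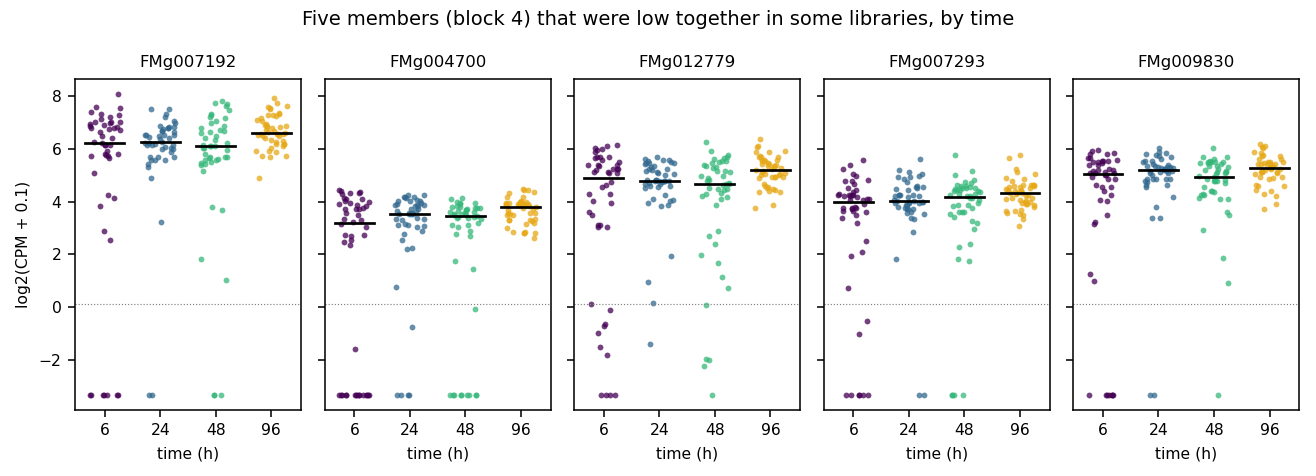
Level of the 5 members of block 4 in each library, as log2(CPM + 0.1) on the vertical axis, by time in hours on the horizontal axis; points are libraries, black bars medians and the dotted line 1 CPM. Libraries near or at no count appear at 6, 24 and 48 h, and the 48 libraries at 96 h have none under 1 CPM.

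The SD of these members over the libraries of a time was smallest at 96 h. In the order 6, 24, 48 and 96 h, the SD of FMg004700 was 3.30, 2.09, 2.73 and 0.48 on the log2 scale, and that of FMg012779 was 3.01, 1.41, 2.35 and 0.57. These values are given as a description, since the same spread chose the members, and both names were chosen after the values were seen. Mean levels of the 5 members of block 4 did not pass the test between 96 and 6 h, where 29.3% of all genes did. Their log2 differences were 0.37 to 0.54, with edgeR adjusted p from 0.221 to 0.380. The adjustment was over the 18145 genes that passed a low-count filter.

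Totals of the low libraries of block 4 overlapped those of the others. The 31 libraries had totals of 12.8 to 22.0 M counts (median 17.99), and the other 160 had 12.7 to 27.97 M (median 19.8). Of the 31, 3 were among the 8 libraries of low agreement, and of the 160, 5 were. The median correlation with the group was 0.917 in the 31 and 0.925 in the 160. In the 10 libraries lowest in the block it was 0.907, and 3 of the 10 had low agreement. In the 10 highest it was 0.924, and 0 had low agreement. The median r within the block was 0.80 without those 8 libraries, 0.81 with them, and 0.32 at the time where it was weakest. Outside the members, 104 genes of the range had r of at least 0.7 with the block. Their within-group SDs were 0.29 to 1.09. In the 10 lowest libraries of block 4 their median deviation was -1.06 on the log2 scale, against -6.25 for the 5 members. Over all genes of the range outside the members, these 104 included, it was -0.06. Both the 104 genes and the 10 libraries were chosen by the block's mean, so low values there are built in. The part of depth and agreement in the block was not tested.

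Of the 11 pairs of members whose identifier numbers differ by 5 or less, 7 had r above 0.5 and the median was 0.79. The median was 0.22 over the 7451 such pairs in the expression range. FMg003113 and FMg003112 (r = 0.99), FMg003577 and FMg003578 (r = 0.98), FMg019062 and FMg019061 (r = 0.97) and FMg011243 and FMg011244 (r = 0.97) varied almost as 1 gene. FMg003244 and FMg003245 did not (r = -0.06). Whether the numbers follow the genome is not given, and reads shared between similar neighbouring copies could raise such values.

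Few members were called for treatment. Comparisons used edgeR's quasi-likelihood test over 18145 genes with Benjamini-Hochberg adjustment, calling a gene at an adjusted p under 0.05. Averaged over the 4 times, 0 of 150 members differed between guanylurea and control, where 1.3% of all genes did (236). At an unadjusted p under 0.05 there were 20 members (13.3%), beside 2405 of all genes (13.3%). DESeq2 called 3 members and 325 genes in all, and limma voom with library quality weights, which changes the tool and the weight of each library together, 1 member and 408 genes. For the mixture 0 members were called, where 0.0386% of all genes were. There were 7 at an unadjusted p under 0.05 (4.67%), beside 1127 of all genes (6.21%). DESeq2 and weighted limma voom also called 0 members, of 13 and 0 genes called in all. The members' 95% intervals were wide, reaching a median of 0.58 log2 to each side of the estimate for guanylurea, against 0.23 over all genes.

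For metformin, 1 member was called, FMg015308, where 0.0882% of all genes were. Its level ran from 4.93 to 1992 CPM in the 48 controls (median 62.2 CPM) and from 0.812 to 336.1 CPM with metformin (median 41.6 CPM), so the groups overlapped over most of their range. It fell by 1.52 ± 0.36 SE on the log2 scale (edgeR adjusted p = 0.0489). It was also the 1 member called for any difference among the treatments (edgeR adjusted p = 0.0189), where 1.09% of all genes were. Without the control library at 96 h of 1992 CPM, replicate 4, the metformin difference was -1.24 (edgeR adjusted p = 0.171) and the difference among treatments had an edgeR adjusted p of 0.131. The metformin call was also lost with the replicate block (-1.59, edgeR adjusted p = 0.0788), with scaling by library total (-1.46, edgeR adjusted p = 0.0815), without the 8 low-agreement libraries (-1.31, edgeR adjusted p = 0.172) and with limma voom and library quality weights together (-1.04, adjusted p = 0.201), and it remained with DESeq2 (adjusted p = 0.0173). Over time, FMg015308 was higher at 96 h than at 6 h by 1.71 ± 0.36 SE (edgeR adjusted p = 7.99e-05). The 96 h libraries include the control of 1992 CPM, and the time call was not refitted without that library alone.

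At single times, guanylurea at 96 h had 5 members called, 3.33% of the 150 beside 4.7% of all genes. FMg002740 ran from 44.1 to 2735 CPM in the 12 controls (median 600.0 CPM) and from 6.98 to 376.1 CPM with guanylurea (median 46.1 CPM). The ranges overlapped, and the fitted difference was -3.90 ± 0.97 SE (edgeR adjusted p = 0.00535). It remained called without the highest control, replicate 4 (-3.59, edgeR adjusted p = 0.0176).

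The other 4 members called at 96 h were each lost when the highest library of the higher group was left out. That choice of library makes a smaller difference built in. FMg012511 (-2.78) and FMg015190 (-3.03) were lower with guanylurea, and both had their highest control in replicate 11, at 1946 and 1287 CPM. Their within-group deviations had r = 0.99, so these 2 calls rest on nearly 1 profile. Without it the differences were -1.41 and -1.49, with edgeR adjusted p of 0.212 and 0.221. FMg008973 and FMg009483 were higher, by 1.71 and 2.38. FMg009483, a member of block 1, lay between 0.104 and 23.6 CPM in the controls (median 3.97 CPM) and between 1.16 and 59.2 CPM with guanylurea (median 35.9 CPM). Without the highest guanylurea library of each gene, replicates 3 and 7, the differences were 1.62 and 2.25, with edgeR adjusted p of 0.0601 and 0.0742. These 5 genes are named after their values were seen.

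At 48 h, 1 member, FMg001138, was called lower in guanylurea, metformin and mixture, where 0.397%, 0.0331% and 0.127% of all genes were called. The 3 comparisons share the 12 controls, 1 of which, replicate 2, stood at 1853 CPM while the next was at 53.9 CPM and the median at 12.02 CPM. Medians with treatment were 18.7 CPM (guanylurea), 14.8 CPM (metformin) and 10.7 CPM (mixture). Fitted log2 differences were -2.97, -3.12 and -3.56 (edgeR adjusted p = 0.00653, 0.0240 and 0.000955). Without that library they were 0.36, 0.21 and -0.23 (edgeR adjusted p = 0.993, 0.974 and 0.954), so 2 of the 3 changed sign. FMg001138 was also the 1 member called in the mixture at 96 h (2.38, edgeR adjusted p = 0.0229), where 1.82% of all genes were. Without mixture replicate 3, at 1075 CPM, that difference was 1.13 (edgeR adjusted p = 0.551).

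Metformin at 96 h and all 3 treatments at 6 and 24 h gave 0 called members by edgeR, with between 2 and 13 members at an unadjusted p under 0.05 in each comparison, beside 581 to 1687 of the 18145 genes. No other tool was run for single times. The share of all genes called was 0.716% for metformin at 96 h. At 6 h it was 0.0716% with guanylurea, 0.0606% with metformin and 0.0331% with the mixture, and at 24 h it was 0.242%, 0.0386% and 0.011%.

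A treatment effect that differed between the times was called in 2 members, FMg001138 and FMg025543, where 2.44% of all genes were called (edgeR F test).

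By treatment and time, median SDs of the members in the 16 groups were 1.48 to 1.79, lowest in the mixture at 48 h and highest in metformin at 6 h. For the other genes of the range they were 0.343 to 0.424, lowest in the mixture at 24 h and highest in metformin at 48 h. Mean absolute deviations from the group median had a median over members of 1.201 in control, 1.14 with guanylurea, 1.27 with metformin and 1.10 with the mixture. Gene by gene, members differed from control by a median of -0.087 (guanylurea), 0.048 (metformin) and -0.100 (mixture). Over all genes that passed the low-count filter these medians were -0.014, -0.002 and -0.035. The rule used the same deviations, so these values are a description with no test.

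Time was called in more members than treatment. Any difference among the times was called in 34 of 150 members (22.7%), where 35.6% of all genes were called and 49.5% of the genes in the expression range. Against 6 h, averaged over treatments, 5 members were higher and 5 lower at 24 h (6.67% of members), where 7.15% of all genes were called, 2.58% higher and 4.57% lower. At 48 h, 8 were higher and 2 lower, where 13.6% of all genes were called, 6.19% higher and 7.36% lower. At 96 h, 13 were higher and 7 lower (13.3% of members), where 29.3% of all genes were called, 15% higher and 14.3% lower, and 39.6% of the range.

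Block 3, with 6 members, rose at 48 h. All 6 were called higher than at 6 h, by 1.10 to 1.57 on the log2 scale, where 6.19% of all genes were. At 24 h 4 were called higher, where 2.58% of all genes were, and at 96 h 4, where 15% were. The block's median r within groups was 0.82, so the members also varied together among libraries of the same time, and their values are not independent. With metformin the fitted log2 differences of the 6 from control lay from 0.48 to 1.02 with a median of 0.80. None was called (smallest edgeR adjusted p 0.107), where 0.0882% of all genes were. FMg018123, its most central member, lay between 0.682 and 88.0 CPM at 6 h, with a median of 8.58 CPM. Its median was 16.5 CPM at 24 h (3.62 to 113.1 CPM) and 33.9 CPM at 48 h (3.18 to 290.2 CPM), and 16.1 CPM at 96 h (3.51 to 247.4 CPM). The times overlapped over most of their range. Its 48 h difference was 1.57 ± 0.27 SE (edgeR adjusted p = 4.17e-06). FMg002266 had medians of 31.2, 42.5, 83.7 and 49.9 CPM at the 4 times and rose by 1.35 ± 0.28 SE at 48 h (edgeR adjusted p = 0.000177).

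Block 5, also of 5 members, was lower at 24 h. 4 of them, FMg002592, FMg003484, FMg002981 and FMg015634, were called lower at 24 h than at 6 h, where 4.57% of all genes were. They fell by 0.86 to 1.72 on the log2 scale. All 5 were called for a difference among times, where 35.6% of all genes were. The block's median r was 0.68, so these calls are not independent. FMg002592, its most central member, had a median of 48.6 CPM at 6 h (range 4.07 to 202.7 CPM), 28.3 CPM at 24 h (5.94 to 228.2 CPM), 42.5 CPM at 48 h (6.74 to 302.4 CPM) and 80.1 CPM at 96 h (4.99 to 720.5 CPM). Its 24 h difference was -0.86 ± 0.26 SE (edgeR adjusted p = 0.0219). FMg003484 was the 1 member of block 5 called higher at 96 h than at 6 h, where 15% of all genes were. It rose by 1.45 ± 0.38 SE (edgeR adjusted p = 0.00129), with medians of 30.2 CPM at 6 h, 8.69 CPM at 24 h, 13.2 CPM at 48 h and 52.3 CPM at 96 h. Within groups, block 5 was not separate from blocks 1 and 2. Of its 115 pairs with block 1, 26 had r above 0.5 and 0 below -0.5. Their median r was 0.41, from 0.04 to 0.76. Of its 35 pairs with block 2, 4 had r below -0.5 and 0 above 0.5, with a median of -0.31. The members of block 5 were named in this paragraph after their values were seen.

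Of the members that were lower at 96 h, FMg021928 and FMg025471 had the smallest p. FMg021928 had a median of 525.1 CPM at 6 h (229.8 to 3333 CPM), 427.1 CPM at 24 h, 373.2 CPM at 48 h and 280.6 CPM at 96 h (0 to 955.2 CPM). It fell by 1.51 ± 0.27 SE at 96 h (edgeR adjusted p = 3.36e-06). It had no count in 2 libraries at 24 h, 1 at 48 h and 1 at 96 h. FMg025471 is one of the 2-level members. Its medians were 145.9, 133.8, 126.4 and 61.3 CPM, and it fell by 1.49 ± 0.29 SE (edgeR adjusted p = 1.43e-05). Its 7 low libraries were 3 at 48 h and 4 at 96 h, yet the quartiles at 96 h (30.9 and 80.8 CPM) were both below the lower quartile at 6 h (105.5 CPM), so the lower level at 96 h was not confined to those libraries.

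**Figure D5:**
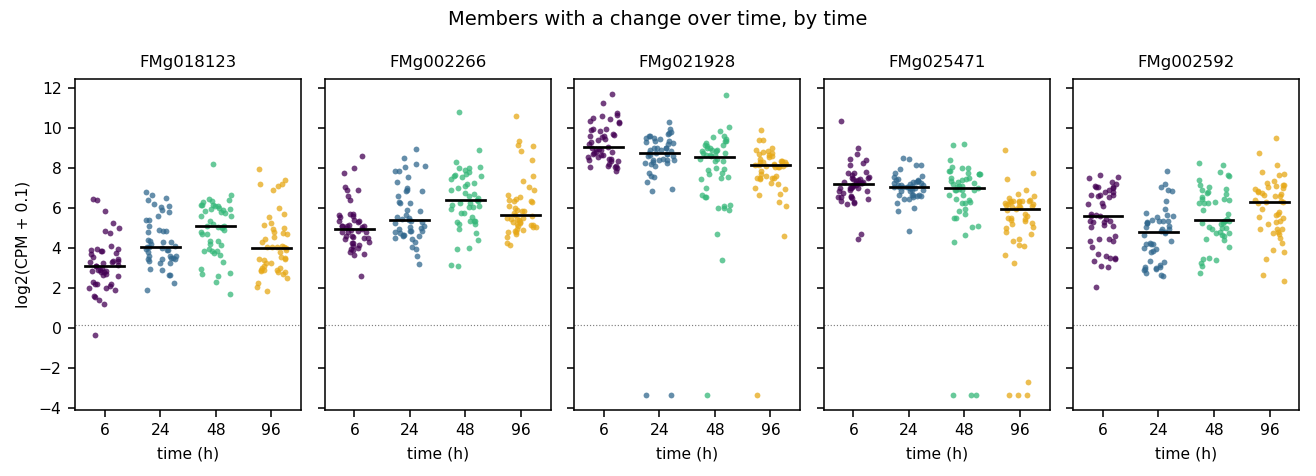
Level of 5 members in each library, as log2(CPM + 0.1) on the vertical axis, by time in hours on the horizontal axis; points are libraries, black bars medians and the dotted line 1 CPM. Medians of FMg018123 and FMg002266 peak at 48 h (33.9 and 83.7 CPM), FMg021928 and FMg025471 are lowest at 96 h (280.6 and 61.3 CPM), and FMg002592 is lowest at 24 h (28.3 CPM), each with wide overlap between times.

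When the 150 were chosen again from the libraries of 1 time, between 112 and 126 were found again, and between 115 and 124 from the libraries of 1 treatment. Of the 150 members, 69 were in the top 150 at each of the 4 times, 75 in each of the 4 treatments and 53 in all 8 of these choices. The libraries of each choice also helped to choose the 150, so part of this overlap is built in. Of the 19 members with 2 levels, 5 were among those 53.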

How the data were processed

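Liver mRNA was measured in 48 libraries per treatment (47 for guanylurea), made with a strand-preserving mRNA kit according to the labels' protocols. Both tables deposited by the authors hold expected counts, that is, RSEM estimates per gene or transcript, as whole numbers (0 values were not whole, 0 columns unused). The tools named, per the submitters' processing notes, are RSEM 1.3.1, Bowtie2 2.3.5 and bcl2fastq 1.8.4. Because RSEM divides ambiguous reads between similar genes, near-identical copies have uncertain counts. Genome build, annotation and strand setting: not given in the sources used here.

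CPM was computed from column totals. Counts were fitted with edgeR 4.0.16 (R 4.3.3; filterByExpr with minimum count 10 and minimum total 15, TMM scaling, robust quasi-likelihood, 1 mean per group). Fits were tested on simulated data. Alternatives were DESeq2 1.42.0, limma voom with library quality weights (limma 3.58.1), other scalings, no filter, a replicate block and leaving out 8 libraries of low agreement (median correlation with their group over 5 median absolute deviations below the median). Same-numbered libraries of different groups had a median r of 0.016 over the expression range, against -0.006 for different numbers. Same-numbered pairs ran from -0.41 to 0.65, with 31.6% above 0.1, and that share was not computed for different numbers. Whether the numbers mark a tank or batch is not given, and these medians cannot settle it.

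Planned tests of spread between groups are not reported, because the deviations they use chose the members. The members and lists were chosen with earlier results of these data known. Named genes were the 6 widest members and their closest partners, the 2 genes on each side of the limit, block centres, extremes of shape and level, and the 2 called members of smallest p in each direction. The 2-level criterion, the test of treatment by time, the refits without 1 library and all other names were chosen after the data were seen. Each refit left out the highest library of the higher group, which lowers a difference, or for F tests the highest of all libraries. Calls over time were not refitted.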

Additional observations from a re-analysis of the deposited data

Results flagged for a closer look

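A treatment effect that differed between the times was called in 2 of 150 members, where 2.44% of all genes were called (edgeR F test of the difference itself). FMg001138 had an adjusted p of 2.67e-09 and FMg025543 one of 0.048 (edgeR, Benjamini-Hochberg).

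For FMg001138, medians were 12.2 CPM in control and 24.3 CPM with guanylurea at 6 h. At 96 h they were 14.1 CPM in control, 71.4 CPM with guanylurea and 28.8 CPM with the mixture. Neither guanylurea difference was called by edgeR at its own time. The highest libraries were 1853 CPM in control at 48 h and 1075 CPM in the mixture at 96 h. Without the control library of 1853 CPM, replicate 2, the edgeR adjusted p was 1.43e-07. That refit kept the mixture library of 1075 CPM, and this test was not refitted without it.

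For FMg025543, the median with metformin was above that of control at 6 h, at 76.2 against 7.95 CPM, and below it at 24 h, at 21.7 against 45.5 CPM. With guanylurea at 48 h it was 2.46 CPM against 27.4 CPM in control. None of these single-time differences was called by edgeR, and they were picked after the values were seen. Levels in most groups ran from near 1 CPM to over 100 CPM, and the groups overlapped. Without the control library of 1225 CPM at 24 h, replicate 3, the edgeR adjusted p was 0.0297.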

How the results depend on the processing

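Of 64 alternatives to the counts reported, 52 kept the count within 1.5 times. The exceptions were these. For guanylurea, 0 called members became 3 with DESeq2, 1 with limma voom and library quality weights (both changed together, here and in what follows) and 2 without the low-agreement libraries. For metformin, 1 became 0 with weighted limma voom, with scaling by library total only, with the replicate block and without the low-agreement libraries. For any treatment, 1 became 5 with DESeq2 and 2 without the low-agreement libraries. FMg015308 was not among the members called for any treatment without the low-agreement libraries or with weighted limma voom. The choice of members kept 75 of 150 under the coefficient of variation and 87 with a window of 5 to 1000 CPM. Blocks held 28 members when joined at r = 0.6. A wider window adds genes to the same ranking, and a stricter join can only split blocks, so both falls follow from the settings. The cause of the other changes was not tested. The replicate block changed no other of these counts by over 1.5 times, and 147 members were kept under it. FMg001138 at 48 h had log2 differences of 0.36 (guanylurea) and 0.21 (metformin) without control replicate 2, against called values of -2.97 and -3.12 with it. Of 48 alternatives for named genes, 34 kept direction and call, but not evenly. FMg018123, FMg002266, FMg021928 and FMg025471, named for their small p over time, kept both in every alternative. All alternatives that lost direction or call were of members called in treatment comparisons. For those members they were the majority. Counting error was at most 1.13% of a member's within-group variance, and other ways in which depth could act were not tested. The wide spread among libraries limits the precision of every comparison of means.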
